A study of Danio rerio with 12 samples.

Results

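The genes described here are the zebrafish glutathione transferase genes gsto1, gsto2, gstp1.1 and gstp1.2, which are 4 of the 35117 Ensembl gene IDs of the count table. They were taken by symbol, ignoring case. gsto2 is ENSDARG00000033285, gstp1.2 is ENSDARG00000104068, gsto1 is ENSDARG00000022183 and gstp1.1 is ENSDARG00000103019. The genes were picked with the difference between DMut and sibling tubes already known. Their levels in those tubes, and in every comparison with those tubes in either of its groups, are therefore given as a description without a test.

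RNA was measured by Smart-seq2, in which full-length cDNA is amplified from poly(A) RNA, in 12 tubes of microglia, the resident macrophages of the brain. For each tube 3 DsRed-positive cells were picked by hand after the brains of about 10 embryos at 3 dpf (days post fertilisation) had been dissociated. There were 3 tubes each of siblings, of mafba mutants, of mafbb mutants and of DMut, a name the labels do not spell out. All of the groups carried Tg(mpeg1:DsRedx), in which the mpeg1 promoter of macrophages and microglia drives the red protein, so the mark does not separate microglia from other macrophages. The mutant alleles, the genotypes among the siblings and the number of dissociations per group are not stated in the sources used here, so a p-value measures the spread between tubes.

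Glutathione transferases join the tripeptide glutathione to reactive compounds or use it to reduce them. Omega class enzymes such as those of gsto1 and gsto2 have a cysteine in the active site and, in mammals, reduce dehydroascorbate and mixed disulfides more than they conjugate. Pi class enzymes such as those of gstp1.1 and gstp1.2 conjugate electrophiles, and in zebrafish larvae a pi class gene is a known target of Nrf2, a transcription factor held back by Keap1. Nrf2 binds DNA together with small Maf proteins, which are relatives of the large Maf proteins encoded by mafba and mafbb.

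Total counts were between 10014888 and 17689266 per tube. Levels are given as CPM, counts scaled to a common library size with edgeR's TMM factors. Genes with at least 1 count numbered 7077 to 7665 in sibling tubes, 7038 to 10521 in mafba, 5100 to 6141 in mafbb and 7808 to 9297 in DMut. ERCC spike-in RNA took 0.194% to 0.342% of all counts in siblings, 0.0946% to 0.452% in mafba, 0.662% to 0.798% in mafbb and 0.122% to 0.322% in DMut. The transcript of mafbb (ENSDARG00000070542) had 5, 13 and 17 counts in the replicate 3 tubes of siblings, mafba and DMut and 0 in the other 9 tubes, so it does not check the labels. The 17 IDs of the microglia marker list took 4.55% to 6.48% of gene counts in siblings, 1.76% to 5.87% in mafba, 2.11% to 4.2% in mafbb and 0.282% to 0.602% in DMut. In DMut 8 of them were at 0, among them the microglial lipoprotein genes apoeb and apoc1, the purine receptor gene P2RY12 and the complement genes c1qa, c1qb and c1qc. The 9 neutrophil IDs took 0.0129% to 0.0155% in siblings, 0.00621% to 0.0308% in mafba, 0.0191% to 0.0259% in mafbb and 0.0486% to 0.0944% in DMut. Of these, EPX, lyz and npsn were counted in DMut alone, mmp25b in mafba and DMut, and srgn in every genotype. epx, MMP9, cxcr1 and CXCR1 were at 0 in every tube. The 9 epidermal and metaphocyte IDs made up 9.32e-05% to 0.00649% of gene counts in siblings, 0.001% to 0.038% in mafba, 0% to 0.00686% in mafbb and 0.0349% to 0.04% in DMut. The 9 erythroid IDs were at 0 in every tube. The 14 pan-myeloid IDs took 0.426% to 0.719% in siblings, 0.544% to 0.788% in mafba, 0.663% to 0.851% in mafbb and 0.623% to 0.738% in DMut. All 14 were counted in siblings, mafba and mafbb, and 13 in DMut, where marco was at 0. The 12 radial glia IDs took 0.358% to 0.936% in siblings, 0.274% to 0.81% in mafba, 0.178% to 0.317% in mafbb and 0.0204% to 0.0287% in DMut, so that DMut lay below all other tubes. GFAP, S100B, her4.1 and SOX2 of that list were at 0 in every tube, and its reads were of GLUL, FABP7, SLC1A3 and, in mafbb, SLC1A2. The 10 endothelial IDs took 0.00539% to 0.0113% in siblings, 0.00452% to 0.0113% in mafba, 0% to 0.0165% in mafbb and 0% to 0.000471% in DMut, with kdrl, cdh5 and EGFL7 at 0 in every tube. The 13 neuronal IDs took 0% to 0.000234% in siblings, 0.00291% to 0.0135% in mafba, 2.48e-05% to 0.032% in mafbb and 0% to 0.00331% in DMut.

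gsto2 and gstp1.2 carried nearly all reads of the gene group and were counted in all 12 tubes. With TMM scaling the mean of each mutant group was 1.73 to 3.58 times the sibling mean for gsto2 and 2.02 to 3.09 times for gstp1.2. With scaling to the ERCC spike-ins the mafbb means were 0.633 times the sibling mean for gsto2 and 1.07 times for gstp1.2, with overlapping tubes, and the means of mafba and DMut stayed above the sibling mean. gsto1 was counted in 6 of the 12 tubes, and gstp1.1 had no more than 2 counts in any tube. gsto1, gsto2 and gstp1.2 passed the filter on low counts and gstp1.1 did not.

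gsto2, an omega class gene, was at 310, 307 and 510 CPM in sibling replicates 1, 2 and 3. In mafba tubes it was at 1102, 1190 and 780.04 CPM, in mafbb tubes at 782, 624 and 547 CPM, and in DMut tubes at 992, 2161 and 886 CPM. All 9 mutant tubes lay above all 3 sibling tubes, and DMut replicate 2 was the highest of the 12. The same held for 21 of the 9519 genes tested, a share of 0.221%. Since gsto2 was chosen for its difference, nothing is read from that share.

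The mean of gsto2 was 376 ± 117 CPM (SD, n = 3) in siblings, 651 ± 120 in mafbb, 1024 ± 216 in mafba and 1347 ± 708 in DMut. These means were 1.73, 2.73 and 3.58 times the sibling mean. Tubes that do not overlap with siblings in the higher direction were found for 2.52% of all genes in mafbb, 5.61% in mafba and 9.86% in DMut. The DMut ratio was 2.50 without DMut replicate 2, which had 7808 genes with a count and 0.322% spike-in RNA. In the order of the means, siblings and mafbb did not overlap, mafbb and mafba met at 1 pair of tubes (782 and 780.04 CPM), and mafba and DMut overlapped. DMut and mafbb did not overlap, as was the case for 13.5% of genes in that direction. In tubes of a few cells, more cells with the transcript and more transcript per cell cannot be told apart. Against siblings, the shares of the microglia, radial glia and endothelial lists were lower in DMut. Those of the neutrophil list and of the epidermal and metaphocyte list were higher. In mafbb the shares of the microglia and radial glia lists were also lower than in siblings. That of the neutrophil list was higher, with reads of srgn alone, as was the share of spike-in RNA. In mafba each of these shares, given above, overlapped that of siblings, but the share of the neuronal list was higher, without overlap. The part of these shares in the levels of gsto2 and gstp1.2 was not tested.

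gstp1.2, a pi class gene, was at 380, 172 and 504 CPM in sibling replicates 1, 2 and 3. In mafba tubes it was at 786, 852 and 493 CPM, in mafbb tubes at 769, 697 and 1799 CPM, and in DMut tubes at 844, 1121 and 1040.5 CPM. Of the 9 mutant tubes 8 lay above every sibling tube, and mafba replicate 3 lay just below sibling replicate 3. The share of all genes with that pattern was not counted, so nothing is read from it. The highest of the 12 tubes was mafbb replicate 3, which also had the fewest genes with a count, 5100, and the largest share of spike-in RNA, 0.798%.

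The mean of gstp1.2 was 352 ± 168 CPM (SD, n = 3) in siblings, 710.3 ± 191 in mafba, 1002 ± 143 in DMut and 1088 ± 617 in mafbb. These were 2.02, 2.85 and 3.09 times the sibling mean. The mafbb ratio was 2.08 without mafbb replicate 3. Each neighbour in this order overlapped the next, while DMut and mafbb each lay wholly above siblings. That was so for 9.86% of all genes in DMut and 2.52% in mafbb. Since gstp1.2 was chosen for its difference, nothing is read from these shares. For gsto2 mafbb had the lowest mean of the mutant groups, and for gstp1.2 the highest. With spike-in scaling mafbb had the lowest mean of the mutant groups for both genes.

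**Figure D1:**
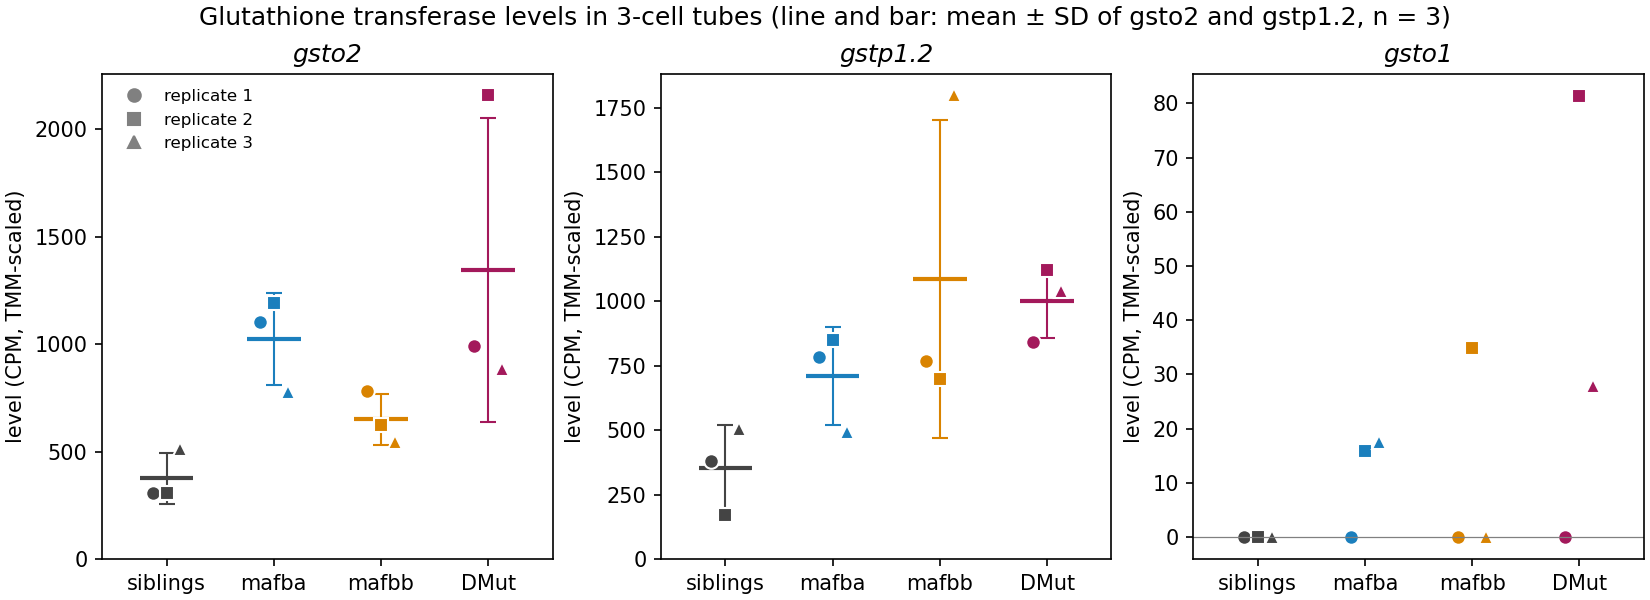
Level of gsto2, gstp1.2 and gsto1 in each tube (CPM on TMM-scaled library sizes), by genotype, with symbols for the replicate numbers. Lines and bars give the mean and SD of 3 tubes for gsto2 and gstp1.2. All mutant tubes of gsto2 stand above the sibling tubes, while gsto1 is at 0 in all sibling tubes and in at least 1 tube of each mutant group.

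gsto1, the other omega class gene, had 0 counts in all 3 sibling tubes. It had 0, 173 and 258 counts in mafba replicates 1, 2 and 3, 1, 469 and 0 in mafbb, and 0, 690 and 260 in DMut. In CPM the highest tube was DMut replicate 2 with 81.3, which was also the highest tube of gsto2. Each mutant genotype had at least 1 tube at 0, so no mutant group stood apart from siblings. A count of 0 over the sibling tubes allows a level of up to 0.0801 CPM (3 counts over the group, counting error only). Where gsto1 was counted, it made between 0.0107% and 5.29% of the reads of both omega class genes.

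gstp1.1 had 1 count in mafba replicate 1, 1 in mafbb replicate 1, and 2, 2 and 1 in DMut replicates 1, 2 and 3. It was at 0 in the other 7 tubes, siblings included, and was not tested. Its counts stood beside 1686 to 31125 counts of gstp1.2. gsto1 lies directly next to gsto2, and gstp1.1 next to gstp1.2, in the RefSeq assembly GRCz12tu, which is not the build of the counts. Reads of such copies can be split or misplaced by the counting, so the levels of the rarer copies are uncertain.

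The comparison of mafba with mafbb has no sibling or DMut tube in either group. It was the only contrast in which the genes were tested. The filter and the estimate of spread still drew on the sibling and DMut tubes. The p-values are therefore not independent of the tubes in which the genes were picked. With the compared groups alone, the log2 difference was 0.69 for gsto2 (adjusted p = 0.799 in edgeR). For gstp1.2 it was -0.55 (adjusted p = 0.9998 in edgeR). None of the 3 genes tested passed, in a contrast where edgeR called 0.042% of all genes. At an unadjusted p under 0.05 the count was also 0, as it was for adjusted p-values by DESeq2 and limma voom. gsto2 was 1.57 times higher in mafba than in mafbb, a log2 difference of 0.65 ± 0.36 (SE), with an unadjusted p of 0.0762 and an adjusted p of 0.315 in edgeR's quasi-likelihood test. gstp1.2 was 1.53 times higher in mafbb than in mafba, a log2 difference (mafba minus mafbb) of -0.62 ± 0.39, with an unadjusted p of 0.12 and an adjusted p of 0.431 in edgeR. That difference was -0.05 without mafbb replicate 3. For gsto1 the log2 difference was -0.07 ± 3.29 (adjusted p = 1 in edgeR), an error that leaves either direction.

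With scaling to the ERCC spike-ins, gsto2 passed, at a log2 difference of 2.53 ± 0.67 in favour of mafba (adjusted p = 0.0166 in edgeR). Over its 19 alternatives the adjusted p ranged from 0.0166 to 1. The sign of gstp1.2 turned with that scaling, to 1.34 ± 0.67 (adjusted p = 0.161 in edgeR, range over alternatives 0.161 to 1).

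The ratio of gsto2 to gstp1.2 reads within a tube does not depend on how tubes are scaled. This ratio was added after the levels had been seen. It was 0.815, 1.79 and 1.01 in sibling replicates 1, 2 and 3, and 1.40, 1.40 and 1.58 in mafba. It was 1.02, 0.896 and 0.304 in mafbb, and 1.18, 1.93 and 0.852 in DMut. All mafba tubes lay above all mafbb tubes, and the mean log2 ratio was 1.16 higher in mafba. Siblings and DMut each had tubes above and below the mafba values, and mafbb replicate 3 lay below every other tube. Since the ratio was picked with the levels in view, no test is given.

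**Figure D2:**
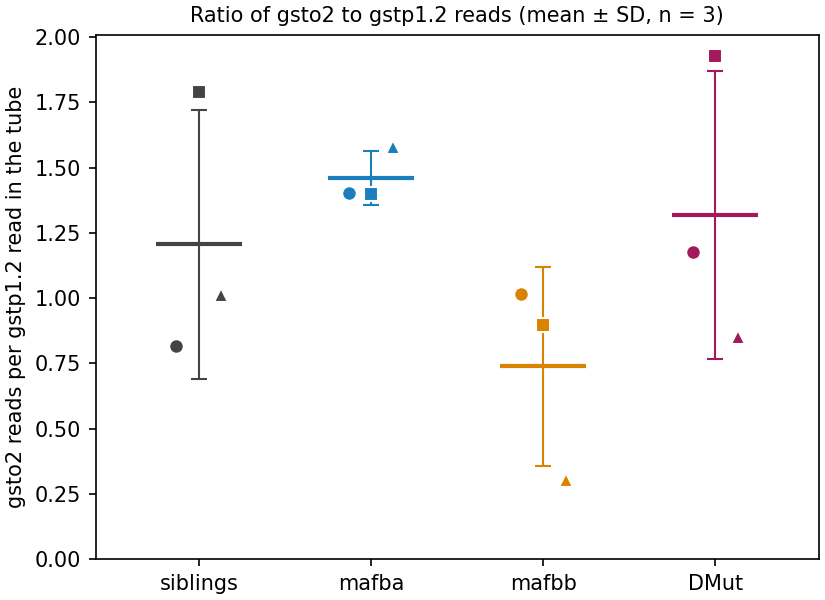
Reads of gsto2 per read of gstp1.2 in each tube, by genotype, with the mean and SD of 3 tubes. The mafba tubes lie between 1.40 and 1.58 and the mafbb tubes between 0.304 and 1.02.

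How far the sibling comparison depends on scaling differed by genotype. In DMut, the log2 ratio of mean levels over siblings was 1.84 for gsto2 and 1.51 for gstp1.2 with TMM. Over the 4 other scalings it was 1.69 to 1.94 for gsto2 and 1.34 to 1.8 for gstp1.2, and DMut tubes stayed above sibling tubes under each. In mafba it was 1.38 to 1.87 for gsto2 and 0.91 to 1.44 for gstp1.2 over those 4, and with spike-in scaling the gsto2 tubes overlapped. In mafbb, spike-in scaling turned the gsto2 ratio from 0.79 to -0.66 and moved that of gstp1.2 from 1.63 to 0.1, with overlap for both genes. Under it the median gene counted in both groups was at -1.36 in mafbb, 0.51 in mafba and 0.41 in DMut. With TMMwsp that median was 0.49 in mafbb, and with library size alone 0.13 in mafbb and -0.13 in DMut. With DESeq2 size factors the gsto2 tubes of mafbb overlapped the sibling tubes.

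**Figure D3:**
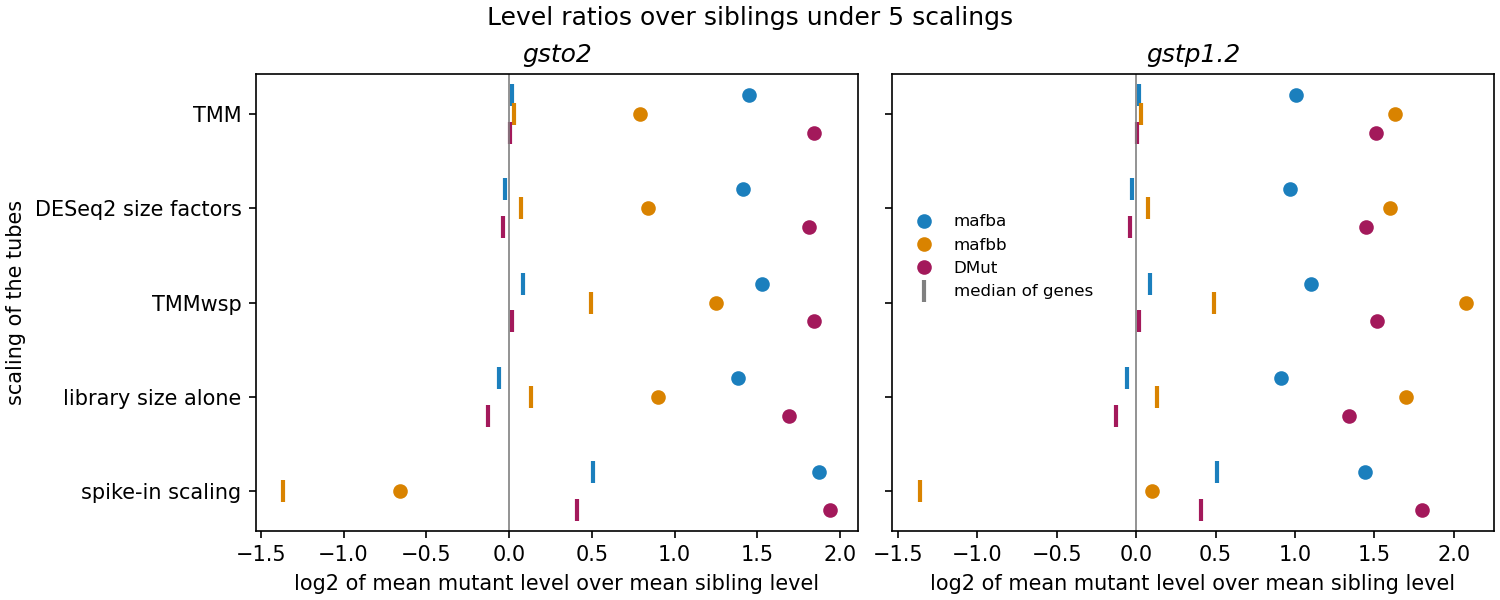
The log2 ratio of the mean mutant level over the mean sibling level of gsto2 (left) and gstp1.2 (right) under 5 scalings of the tubes, with dots for the genes and ticks for the median of genes counted in both groups. The mafbb dots and ticks shift to the left with spike-in scaling, where gsto2 is at -0.66.

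The wider family was then described, also after the levels had been seen. It holds 23 IDs with a symbol that begins with gst or mgst, of which 22 were counted in some tube, 5 in all 12 tubes and 15 were tested. Besides gsto2 and gstp1.2, the IDs counted in every tube were mgst3b, gstr and a GSTM3 ID (ENSDARG00000042533). gsto2 and gstp1.2 together made 56.1% to 70.6% of the family's reads in sibling tubes, 74.2% to 82.3% in mafba, 65.4% to 79.1% in mafbb and 85.0% to 87.5% in DMut. These are shares of reads, not of molecules, since transcript lengths were not used. gsto2 alone made 31.4% to 36.0% of the family's reads in siblings, 43.3% to 50.4% in mafba, 18.4% to 39.9% in mafbb and 39.2% to 57.6% in DMut. Its share in mafbb replicates 2 and 3 was thus below that of every sibling tube. gstp1.2 made 20.1% to 38.9% in siblings, 31.0% to 31.9% in mafba, 34.5% to 60.5% in mafbb and 29.9% to 46.1% in DMut. The family as a whole took 0.0783%, 0.112% and 0.16% of gene reads in the sibling tubes and 0.148% to 0.319% in the mutant tubes, where mafba replicate 3 lay below sibling replicate 3.

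Of the other 19 family IDs, the mean in DMut was below that in siblings for 11, above it for 4 and at 0 in both groups for 4. Of the 12 that were tested, edgeR called 0, with 1 at an unadjusted p under 0.05. Over all 9519 genes these counts were 68 and 1187. Higher means in DMut were seen for a GSTM3 ID (ENSDARG00000042533), at 75.7 ± 59.8 CPM against 40.5 ± 40.8 in siblings (SD, n = 3). They were also seen for the MGST1 IDs ENSDARG00000022165, at 69.98 ± 63.9 against 21.3 ± 18.6 CPM, and ENSDARG00000032618, at 38.3 ± 60.2 against 8.75 ± 15.2 CPM. The tubes of both groups overlapped for each of these, and GSTCD was at 0 in siblings and had a count in 1 DMut tube. gstr, a fish transferase of the rho class, was at 47.6, 41.8 and 149.9 CPM in sibling tubes and at 27.8, 23.8 and 1.29 CPM in DMut tubes. All 3 DMut tubes lay below the sibling tubes, which was so for 7.33% of genes, and the log2 difference of -2.18 ± 1.44 did not pass (adjusted p = 0.659 in edgeR). gstk1, of the kappa class, was at 39.7, 0 and 64.9 CPM in siblings and at 0, 0 and 0.966 CPM in DMut (adjusted p = 0.393 in edgeR). DESeq2 on the same genes gave gstk1 an adjusted p of 0.0139. mgst3b, which encodes a membrane-bound transferase, was at 86.7 ± 79.6 CPM in DMut, 101.1 ± 16.6 in mafbb, 130 ± 88.8 in mafba and 138 ± 31 in siblings. gsta.1, gsta.2 and gstt1a were at 0 in all 3 DMut tubes and were each counted in 1 sibling tube and in 2 or 3 mafba tubes. gstt2 was at 0 in all DMut and all sibling tubes and was counted in 3 mafba tubes and 1 mafbb tube. DESeq2 on the same genes called gstt1a (adjusted p = 2.11e-06) and gsta.1 (adjusted p = 3.37e-06) lower in DMut than in siblings, and edgeR gave 0.394 and 0.402.

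**Figure D4:**
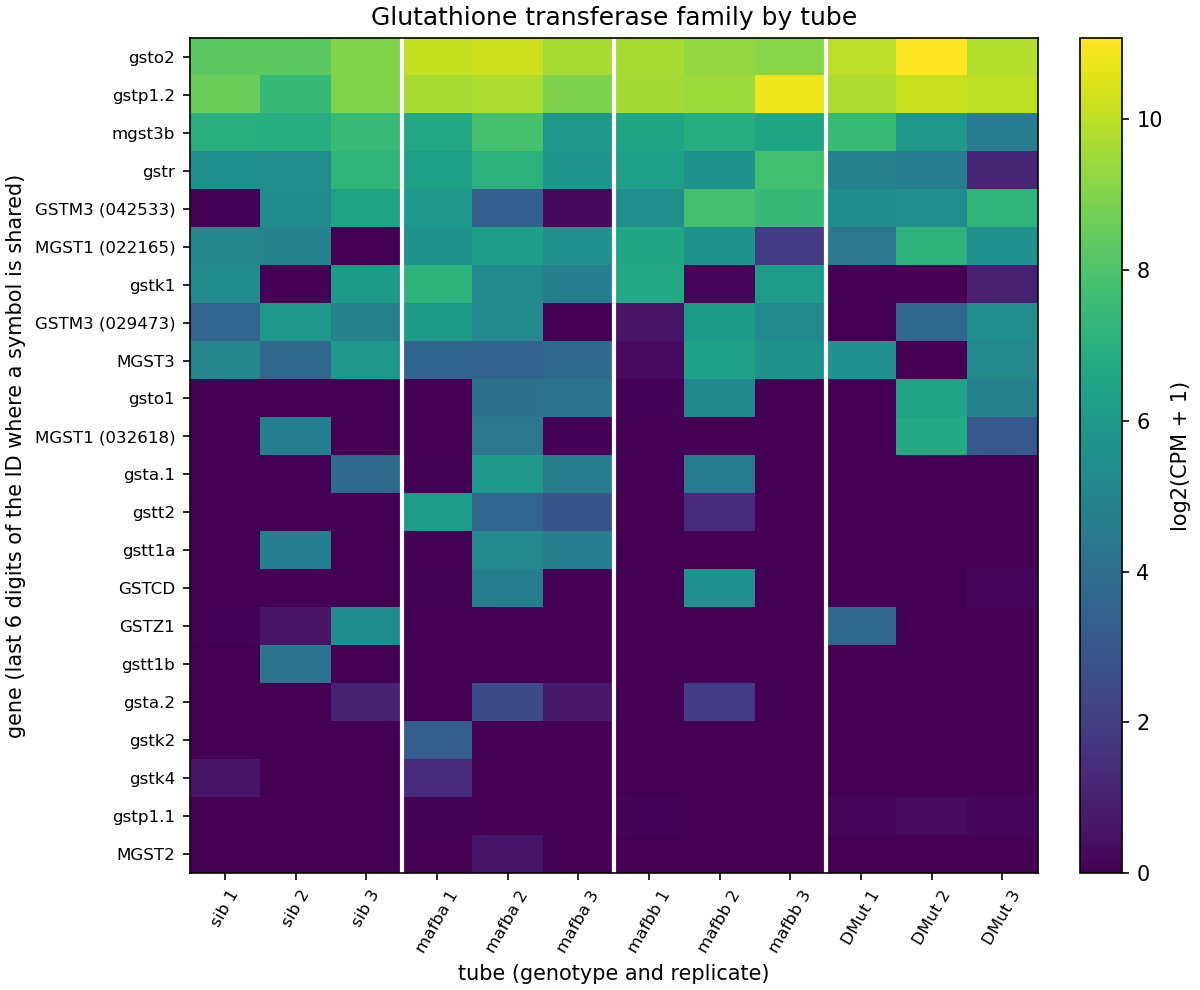
Level of the 22 glutathione transferase IDs with a count in some tube, as log2(CPM + 1), with a column for each tube and rows ordered by mean level. The top rows are gsto2 and gstp1.2, which are bright in every tube, and most lower rows are at 0 in many tubes.

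The glutathione and Nrf2 pathway was followed in a list of 138 names, of which 22 had no match. The list was chosen with earlier results of these data known, so nothing is read from its share of genes called. It gave 118 IDs besides gsto1, gsto2, gstp1.1 and gstp1.2, and 81 were tested. These hold 16 of the family's other IDs, of which 10 were tested, so the counts of the list and of the family are not independent. In DMut against siblings 3 of them were lower and 0 higher at an adjusted p under 0.05 in edgeR, which called 0.714% of all genes, 0.462% lower and 0.252% higher. At an unadjusted p under 0.05 there were 7 higher and 5 lower, beside 726 higher and 461 lower of all 9519 genes tested. DESeq2 on the same genes called 4 higher and 7 lower, with gstk1, gstt1a and gsta.1 among the 7, and limma voom called 2 higher and 1 lower. Over all 9519 genes DESeq2 called 521 higher and 387 lower, and limma voom 275 higher and 148 lower. DESeq2 on all genes counted called 1 higher, CTH, and 2 lower, gstt1a and gsta.1. In that run 543 of all 16088 genes were higher and 320 lower. The median log2 ratio of mean levels over the list was 0.33, beside 0.08 over all genes tested, with 47 of the list above 0 and 33 below. Of all 9519 genes tested 4929 were above 0 and 4536 below.

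The 3 genes called lower were in the lists of glutathione synthesis and cystine uptake, glutathione breakdown, and conjugate export and ascorbate uptake. slc3a2a (ENSDARG00000036427) encodes the heavy chain shared by several amino acid transporters, in mammals also the cystine and glutamate exchanger. It was at 1272, 1322 and 1170 CPM in sibling tubes and at 119, 179.9 and 167 CPM in DMut tubes. It fell 8.08-fold against siblings (log2 -3.01 ± 0.42, adjusted p = 9.11e-06 in edgeR), with no overlap. It also fell against mafba (log2 -2.79 ± 0.42, adjusted p = 3.89e-05) and against mafbb (log2 -2.05 ± 0.40, adjusted p = 0.00374), and these 3 comparisons share the DMut tubes. limma voom did not call it against siblings (adjusted p = 0.275), and DESeq2 fitted to all genes with a count gave 0.383, against 5.57e-07 on the genes edgeR tested. Neither limma voom nor DESeq2 on all genes counted called it against mafba (adjusted p = 0.535 and 0.68) or against mafbb (0.528 and 0.587). The call against mafbb was also lost with robust=FALSE (adjusted p = 0.0759) and with the compared groups alone (0.159). With spike-in scaling the log2 difference from mafbb was -0.34 (adjusted p = 0.819), and without mafbb replicate 1 it was -1.55 (adjusted p = 0.0844).

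ABCC5 (ENSDARG00000061233) encodes an export pump which in mammals carries cyclic nucleotides and glutathione conjugates. It was at 1085, 1787 and 1287 CPM in siblings and at 285, 591 and 224 CPM in DMut, a 3.78-fold fall (log2 -1.92 ± 0.36, adjusted p = 0.00171 in edgeR). The call was lost with spike-in scaling (adjusted p = 0.399), with robust=FALSE (0.0682), with the compared groups alone (0.114) and with DESeq2 on all genes counted (0.949). CNDP2 (ENSDARG00000003931) encodes a cytosolic dipeptidase that splits cysteinylglycine, a product of glutathione breakdown. It was at 1378, 1171 and 1555 CPM in siblings and at 359, 513 and 549.5 CPM in DMut, a 2.89-fold fall (log2 -1.53 ± 0.37, adjusted p = 0.028 in edgeR). Its call was lost without any 1 of the sibling tubes or DMut replicates 1 or 2 (adjusted p between 0.0579 and 0.21) and with 6 other alternatives.

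In the other comparisons few or none of the list were called by edgeR. mafba against siblings had 0, as for all genes (0%), with 3 at an unadjusted p under 0.05, 1 by DESeq2 and 0 by limma voom. Of all 9519 genes 744 had such an unadjusted p. DESeq2 called 446 higher and 138 lower, and limma voom 32 higher and 15 lower. mafbb against siblings had 0, beside 0.0735% of all genes, with 9 at an unadjusted p under 0.05, of which 8 were lower, 7 by DESeq2 and 0 by limma voom. Of all 9519 genes 1774 had such an unadjusted p, and 1371 of these were lower. DESeq2 called 337 higher and 1204 lower, and limma voom 16 higher and 200 lower. DMut against mafba (0.399% of all genes called, 0.336% lower) and DMut against mafbb (0.725%, 0.347% lower) each had slc3a2a alone, which was lower. At an unadjusted p under 0.05, DMut against mafba had 6 of the list higher and 8 lower. Of all 9519 genes 357 were higher and 407 lower there. DMut against mafbb had 12 of the list higher and 7 lower, beside 1605 higher and 352 lower of all 9519 genes. mafba against mafbb had 0, beside 0.042% of all genes, with 7 at an unadjusted p under 0.05, 7 by DESeq2 and 1 by limma voom. Of all 9519 genes 1630 had such an unadjusted p. DESeq2 called 1290 higher and 141 lower, and limma voom 231 higher and 8 lower. The list's median log2 ratio over siblings was 0.14 in mafba, beside 0.11 over all genes, and -0.04 in mafbb, beside -0.30.

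Among the genes of glutathione synthesis and cystine uptake, 8 were tested and slc3a2a was the 1 called by edgeR. CTH was at 0 in all sibling, mafba and mafbb tubes. In DMut it was at 31.6 ± 17.3 CPM, with a count in all 3 tubes. Against siblings, CTH was called higher by limma voom (adjusted p = 0.00267) and by DESeq2 on all genes counted (0.0214). It was not called by edgeR or by DESeq2 on the genes edgeR tested. slc7a11, of the same list, was at 14.6 ± 25.3 CPM in siblings, where 1 tube had a count. In DMut it was at 30.6 ± 5.57 CPM, with a count in all 3 tubes. GCLC encodes the catalytic subunit of the enzyme that makes gamma-glutamylcysteine. It was at 94.4, 24.2 and 49.3 CPM in siblings and at 9.32, 0 and 3.53 CPM in mafbb (adjusted p = 0.265 in edgeR). GCLM encodes the modifier subunit of that enzyme. It had 683, 5 and 2005 counts in sibling tubes, 1259, 678 and 1319 in mafba, 0 in all 3 mafbb tubes, and 320, 27 and 1156 in DMut. The mafbb tubes lay below all other tubes for GCLM, where 9.05% of genes lay below siblings, and edgeR gave an adjusted p of 0.122 against siblings. DESeq2 gave 2.58e-08 for the same comparison. The mafbb tubes were also those with the fewest genes counted and the largest share of spike-in RNA, and the part of these in the zero counts was not tested.

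Of the 22 tested Nrf2, Keap1 and small Maf regulators and other targets, edgeR called 0 in DMut against siblings, with 4 at an unadjusted p under 0.05, all higher. Of all 9519 genes 726 were higher and 461 lower at that unadjusted p. DESeq2 called fthl27, SQSTM1 and PGD higher and HMOX1 lower, and limma voom called PGD. PGD, an enzyme of the pentose phosphate pathway, which makes the NADPH that reduces glutathione, was at 170.2, 186 and 404 CPM in siblings and at 944, 860.02 and 1080 CPM in DMut. Its tubes did not overlap, at a log2 difference of 1.92 ± 0.52 (adjusted p = 0.0864 in edgeR, 0.0416 in DESeq2 and 0.00662 in limma voom). TALDO1, of the same pathway, was at 640.2 ± 120 CPM in DMut and 233 ± 100.9 in siblings (adjusted p = 0.393 in edgeR). SQSTM1, the gene of an autophagy adaptor that also binds Keap1 in mammals, was at 1584 ± 124 CPM in DMut and 409 ± 267 in siblings (adjusted p = 0.143 in edgeR). fthl27, a ferritin heavy chain gene, was at 9298 ± 1746 CPM in DMut and 3452 ± 1486 in siblings (adjusted p = 0.393 in edgeR). The DMut tubes lay above the sibling tubes for each of these 4 genes, and for 6 of the 22 in all, beside 9.86% of all genes. They lay below the sibling tubes for 3 of the 22, beside 7.33% of all genes. HMOX1, which encodes the heme-degrading enzyme heme oxygenase, was at 758, 226 and 569.8 CPM in siblings and at 79.2, 0.354 and 19.4 CPM in DMut (adjusted p = 0.516 in edgeR and 0.0396 in DESeq2). CAT, the catalase gene, was at 168 ± 39.5 CPM in siblings and 51.8 ± 25.2 in DMut (adjusted p = 0.536 in edgeR).

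The remaining groups held 0 genes called by edgeR against siblings in any mutant, apart from ABCC5 and CNDP2. Among 11 tested peroxidases, reductases and glutaredoxins, GLO1, which clears methylglyoxal with glutathione, was at 355 ± 52.3 CPM in DMut and 133 ± 40.6 in siblings (adjusted p = 0.393 in edgeR). GPX4, a lipid hydroperoxide peroxidase, was between 326 and 452 CPM on average in every genotype. Among 12 tested thioredoxins and peroxiredoxins, PRDX1 (ENSDARG00000025350) had means between 1070 and 1283 CPM and TXN, thioredoxin, between 677 and 918 CPM. prdx1 (ENSDARG00000058734) was at 57.0 ± 63.3 CPM in siblings and 252 ± 106 in DMut. prdx5 was at 55.3 ± 33.6 CPM in siblings and 338 ± 136 in DMut (adjusted p = 0.0316 in DESeq2). The DMut tubes lay above the sibling tubes for these 2 alone of the 12, beside 9.86% of all genes. They lay below for 0 of the 12, beside 7.33% of all genes. prdx6, which encodes a peroxiredoxin, was at 278 ± 173 CPM in siblings, 161 ± 57.2 in mafba, 117 ± 32.9 in DMut and 503 ± 525 in mafbb, where replicate 3 alone reached 1109 CPM. Among 10 tested cytosolic transferases and relatives, EEF1G, an elongation factor subunit with a transferase-like domain, was at 822 ± 384 CPM in DMut and 534 ± 243 in siblings. CHAC1, which encodes an enzyme that cleaves glutathione in the cytosol, was at 149 ± 31.8 CPM in DMut and 364 ± 64.8 in siblings (adjusted p = 0.393 in edgeR). Among 6 tested microsomal transferases and relatives, ALOX5AP, needed for leukotriene synthesis, was at 89 ± 12.6 CPM in DMut and 33.8 ± 30.1 in siblings. DMut tubes lay below sibling tubes for all 3 tested genes of glutathione breakdown and above for 0. For cytosolic transferases and relatives 2 of 10 lay below and 0 above. In glutathione synthesis and cystine uptake 1 of 8 lay below and 1 above, and in conjugate export 1 of 9 below and 1 above. Peroxidases, reductases and glutaredoxins had 1 of 11 above and 0 below, and microsomal transferases 1 of 6 above and 0 below. Over all genes 7.33% lay below and 9.86% above.

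**Figure D5:**
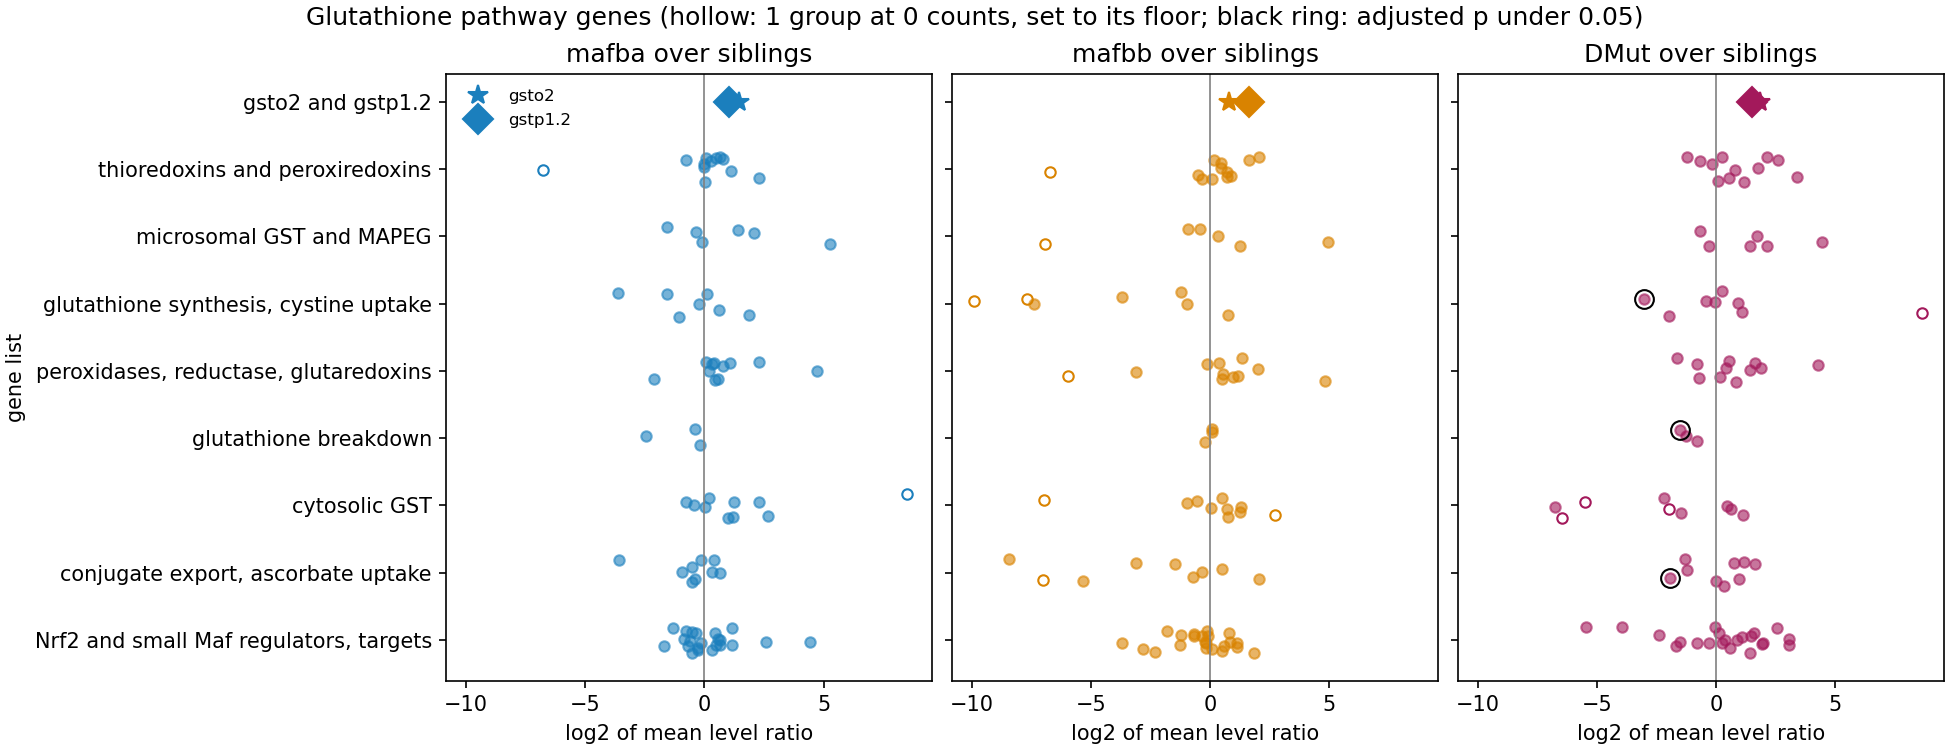
The log2 ratio of mean levels over siblings in mafba, mafbb and DMut for gsto2, gstp1.2 and the tested genes of each pathway list, with a dot per gene. Hollow dots have 1 group at 0 counts, set to 3 counts over the group, and black rings mark an adjusted p under 0.05 in edgeR, which are slc3a2a, CNDP2 and ABCC5 in DMut. The dots of a list spread to both sides of 0.

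The genes whose levels were most like those of gsto2 and gstp1.2 over the 12 tubes were found among 2185 genes with a symbol and a mean of at least 50 CPM, by Pearson's r of log2(CPM + 1). The tubes share genotypes, so r is a description. For gsto2 these were SCPEP1 (r = 0.858), which encodes a serine carboxypeptidase, the zinc transporter gene SLC39A7 (0.812), the sorting nexin gene SNX5 (0.779), the galectin gene lgals9l3 (0.775) and the integrin gene itgb2 (0.771). SCPEP1 had means of 685 CPM in siblings, 1028 in mafbb, 1766 in mafba and 2518 in DMut, the same order as gsto2. After the mean of each genotype was removed, r was 0.501 for SCPEP1, 0.869 for SLC39A7, 0.269 for SNX5, 0.517 for lgals9l3 and -0.03 for itgb2. For gstp1.2 they were si:dkey-286j15.1 (0.907), crip1 (0.89), si:dkey-27i16.2 (0.853), the proteasome subunit gene PSMA5 (0.835) and the splicing protein gene SNRPD2 (0.816). After genotype means were removed, r was 0.808, 0.756, 0.635, 0.783 and 0.699 in that order. Spearman's rank correlation over the 12 tubes was 0.734, 0.776, 0.902, 0.629 and 0.664 in the same order. For the 5 genes of gsto2 it was 0.636 to 0.881. The LIM protein gene crip1 had means of 82.4 CPM in siblings, 234 and 241 in mafba and mafbb, and 299 in DMut. No gene was in both sets of 5. gsto2 and gstp1.2 themselves had r = 0.641 over the 12 tubes and 0.299 after genotype means were removed.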

How the data were processed

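The deposited values were raw counts, whole numbers for each gene and tube, to which the authors had applied no normalization. Per the submitters' processing notes, Trim Galore and STAR and the build GRCz11 (danRer11) were used. Software versions, how reads were assigned to genes, and whether strand was used were not given in the sources used here. Of the 35117 gene IDs 27000 had a symbol in the name table. The 92 ERCC sequences stayed out of library sizes and tests. No sequences or positions are printed, because no sequence table or annotation of this build was used.

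Counts were fitted with edgeR 4.0.16 in R 4.3.3, by glmQLFit with robust=TRUE and glmQLFTest, with TMM scaling and a term per genotype over all 12 tubes. filterByExpr (minimum count 10, minimum total 15) left 9519 genes. A gene was called at an adjusted p (Benjamini-Hochberg, over all 9519) under 0.05. The common dispersion was 4.00. The procedure was run on simulated data with changes larger than those of gsto2 and gstp1.2. Whether it finds changes of their size was not measured. CPM are counts on TMM effective library sizes, with the SD of 3 tubes. Ratios against a group at 0 used 3 counts over the group as its floor, which covers counting error only, as no molecular identifiers were used. No tubes held identical counts.

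Alternatives were DESeq2 1.42.0, limma 3.58.1 voom with sample weights, other scalings and filters, robust=FALSE, a block for the replicate number, the compared groups alone and tubes left out. DESeq2 was run on the genes edgeR tested and, as an alternative chosen after seeing the data, on all genes with a count. The gene group, the pathway and marker lists and the tests were chosen with earlier results of these data known. Named genes are the 4 transferases, list genes that were called, up to 4 per pathway list by mean CPM, and the 5 most alike to gsto2 and to gstp1.2. gsta.1, gsta.2, gstt1a, gstt2, gstk1, GSTCD, the GSTM3 and MGST1 IDs, slc7a11, CTH, prdx5, HMOX1 and CAT were named after their values were seen. So were TXNRD2, glrx2 and slc25a40. One transcript level is not reported here.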

Additional observations from a re-analysis of the deposited data

How the results depend on the processing

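For gsto2, gstp1.2 and gsto1 in mafba against mafbb, 51 values under alternatives kept the direction and the side of the threshold, 5 turned sign and 1 newly passed. With spike-in scaling the log2 difference of gsto2 was 2.53 and passed, that of gstp1.2 turned to 1.34 and that of gsto1 to 2.06. limma voom gave gsto1 2.49. With tubes left out it ranged from 0.42 to 0.82 for gsto2, -0.85 to -0.05 for gstp1.2 and -0.99 to 7.79 for gsto1. The causes of these turns were not tested. The log2 ratios over siblings moved beyond 1 SD in 4 cases, with spike-in scaling to 1.87 for gsto2 in mafba, to -0.66 for gsto2 in mafbb and to 0.1 for gstp1.2 in mafbb, and with TMMwsp to 1.25 for gsto2 in mafbb. With tubes left out they ranged from 1.32 to 1.73 in mafba, 0.64 to 1.08 in mafbb and 1.32 to 2.13 in DMut for gsto2. For gstp1.2 they ranged from 0.68 to 1.36 in mafba, 1.06 to 1.98 in mafbb and 1.18 to 1.86 in DMut.

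Counts of pathway genes called depended on the tool. DESeq2 on the genes edgeR tested called 4 higher and 7 lower in DMut against siblings, 1 lower in mafba and 7 lower in mafbb against siblings, 2 higher and 4 lower in DMut against mafba, 11 higher and 7 lower in DMut against mafbb, and 6 higher and 1 lower in mafba against mafbb. Of the 7 genes it called lower in mafbb against siblings, MGST1 (ENSDARG00000032618), TXNRD2, gstt1a, slc7a11 and glrx2 were at 0 in mafbb. Each of these was counted in 1 sibling tube. The others, GCLM and slc25a40, were counted in 3 and 2 sibling tubes. Against siblings DESeq2 called 521 of all 9519 genes higher and 387 lower in DMut. The counts were 446 and 138 in mafba and 337 and 1204 in mafbb. They were 167 and 341 in DMut against mafba, 1312 and 337 in DMut against mafbb, and 1290 and 141 in mafba against mafbb. DESeq2 on all genes counted called 1 higher and 2 lower in DMut against siblings, 1 higher and 1 lower in mafba against siblings, 6 lower in mafbb against siblings, 2 higher and 3 lower in DMut against mafba, 7 higher and 2 lower in DMut against mafbb, and 5 higher in mafba against mafbb. It called neither slc3a2a, ABCC5 nor CNDP2. Of all 16088 genes it called 543 higher and 320 lower in DMut against siblings. The counts were 454 and 138 in mafba and 342 and 1283 in mafbb against siblings. They were 183 and 297 in DMut against mafba, 1450 and 257 in DMut against mafbb, and 1380 and 129 in mafba against mafbb. limma voom called 2 higher and 1 lower in DMut against siblings, 3 higher and 2 lower in DMut against mafba, 7 higher and 0 lower in DMut against mafbb, and 1 higher in mafba against mafbb. Over all 9519 genes it called 275 and 148, 96 and 77, 441 and 39, and 231 and 8, higher and lower, in that order.

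Scaling, filter and fit moved counts as well. Spike-in scaling called 1 lower in DMut and 1 lower in mafbb against siblings, 10 higher and 0 lower in DMut against mafbb, and 4 higher in mafba against mafbb. Of all 9519 genes it called 25 lower in DMut and 68 lower in mafbb against siblings. It called 345 higher and 21 lower in DMut against mafbb, and 264 higher in mafba against mafbb. TMMwsp called 2 lower in DMut against mafba and 5 against mafbb, library size alone 2 and 3, and DESeq2 size factors 2 against mafbb. Over all 9519 genes these were 34 and 59, 37 and 46, and 41. Without a filter, 2 were higher in DMut and 1 lower in mafbb against siblings, 3 lower in DMut against mafba, 3 higher and 2 lower in DMut against mafbb, and 1 higher in mafba against mafbb. Over all 16088 genes these counts were 45, 28, 58, 73 and 61, and 35. With robust=FALSE 1 was lower in DMut against siblings and 0 against mafbb, beside 30 and 22 of all 9519 genes. With the compared groups alone 1 was lower in DMut against siblings, 1 higher against mafba and 0 lower against mafbb. Over all genes tested there, these were 47 of 7289, 8 of 7786 and 11 of 6310. With tubes left out, calls in DMut were 0 to 1 higher and 2 to 3 lower against siblings, 0 to 1 and 1 to 2 against mafba, and 0 to 2 and 0 to 2 against mafbb. Over all 9519 genes, calls in DMut were 11 to 19 higher and 32 to 45 lower against siblings. They were 1 to 9 and 20 to 34 against mafba, and 24 to 57 and 25 to 33 against mafbb. List calls were 0 to 1 lower in mafbb against siblings and 0 to 1 higher in mafba against mafbb, and 0 in mafba against siblings. Over all 9519 genes, 3 to 23 were lower in mafbb against siblings and 2 to 27 higher in mafba against mafbb.

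Tubes with the same replicate number did not deviate together, with correlations between -0.03 and 0.04 over 18 pairs, none over 0.1. The numbers were therefore not taken to pair the tubes. With the replicate number as a block, calls were 3 higher and 3 lower in DMut against siblings, 1 higher and 3 lower against mafba, and 3 higher and 3 lower against mafbb. Over all 9519 genes they were 53 and 70, 26 and 50, and 67 and 58. In that block fit the log2 difference between mafba and mafbb was 0.63 for gsto2, -0.47 for gstp1.2 and -0.17 for gsto1, and none passed.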
